A study of Mus musculus with 6 samples.

Results

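Lysosomal enzymes and membrane proteins were examined as a set of 43 mouse genes, taken by name from the 24062 genes counted in each library, and all 43 were found. The set holds 5 membrane proteins, 2 sorting receptors, 10 proteases, 10 glycosidases, 4 sulfatases, 7 lipid enzymes and lipid-handling proteins and 5 genes of the proton pump. The rule takes genes by name and uses no measured value. The set itself was chosen with earlier results of these data known. The cells were RAW264.7, a macrophage line derived from mouse, and the study asked how gamma radiation changes the release of exosomes. The sample labels give bone marrow as the tissue, while the culture protocol names the cell line. There were 6 libraries, 1 per condition, each made from RNA pooled from 5 wells, so no difference between any pair of libraries has a replicate check. M0 cells received no polarizing agent. M1 cells were treated for 24 h with LPS at 100 ng/mL together with IFN-γ at 20 ng/mL. M2 cells were treated for 24 h with IL-4 at 20 ng/mL. RM0, RM1 and RM2 cells were the matching states, given 10 Gy of gamma rays and kept for a further 24 h. Whether the non-irradiated cells were also kept for that time is not stated, so irradiation and time after polarization cannot be told apart.

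Lysosomes are the acidic organelles in which macrophages break down what they engulf and what autophagy delivers. A proton pump in the lysosomal membrane acidifies the interior, and glycosylated membrane proteins line it. Most of the enzymes inside are made in the secretory pathway, tagged with mannose 6-phosphate and carried to the lysosome by mannose 6-phosphate receptors. The factors TFEB, TFE3 and MITF bind E-box letters in the promoters of many lysosomal genes, and an extended form of these letters is known as the CLEAR element.

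The E-box letters are shown first because they are a feature of the promoters that was not used to choose the genes. RefSeq promoter windows on GRCm38.p6, from 250 bases before to 50 bases after each transcript start, were matched by symbol for 37 members. CACGTG, which reads the same on both strands, was present in a window of 15 of these 37 genes (40.5%), against 12.1% of 8707 genes that entered the test described below and 8.09% of 27025 genes with a window. The longer form GTCACGTG, read on both strands and always holding CACGTG, was found in 12 of the 37 (32.4%), against 5.01% and 2.55% in the same gene sets. Other lists of genes linked to the lysosome, which also hold sorting genes, regulators and cathepsin inhibitors, had 74 genes with a window. Among these CACGTG was found in 20.3% and GTCACGTG in 12.2%. The full element, CACGTG with GT before it and AC after it, was found in 2 members, Cln3 and Igf2r (5.41%), and in 0.907% of the genes tested. A match is a description of letters and not a site of binding. The windows of 6 members with the longest unbroken runs around these letters are printed 5′ to 3′ on the gene's strand, with each CACGTG in capitals. The places after Cln3 and Igf2r were shared by 5 genes with runs of 9 letters, of which Atp6v0d1, Ctsa, Ctsd and Gla were taken by alphabet.
Cln3 (chr7:126583187-126583486, minus strand): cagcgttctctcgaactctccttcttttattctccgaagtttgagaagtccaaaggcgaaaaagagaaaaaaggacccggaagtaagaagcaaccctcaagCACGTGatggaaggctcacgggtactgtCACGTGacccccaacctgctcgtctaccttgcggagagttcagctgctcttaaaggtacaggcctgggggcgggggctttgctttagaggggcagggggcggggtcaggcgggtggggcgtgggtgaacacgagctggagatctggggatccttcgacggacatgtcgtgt
Igf2r (chr17:12769657-12769956, minus strand): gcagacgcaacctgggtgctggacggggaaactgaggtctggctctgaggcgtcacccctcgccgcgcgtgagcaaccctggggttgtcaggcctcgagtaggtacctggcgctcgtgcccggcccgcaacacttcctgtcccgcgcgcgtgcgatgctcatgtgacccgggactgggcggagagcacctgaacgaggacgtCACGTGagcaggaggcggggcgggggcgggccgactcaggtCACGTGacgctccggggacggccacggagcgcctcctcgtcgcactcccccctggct
Atp6v0d1 (chr8:105566015-105566314, minus strand): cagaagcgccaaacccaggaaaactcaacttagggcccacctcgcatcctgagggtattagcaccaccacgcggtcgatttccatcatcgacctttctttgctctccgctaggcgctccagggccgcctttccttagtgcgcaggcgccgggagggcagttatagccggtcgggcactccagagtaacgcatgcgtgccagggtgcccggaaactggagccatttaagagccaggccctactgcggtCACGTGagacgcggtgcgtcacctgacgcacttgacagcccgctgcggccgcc
Ctsa (chr2:164833523-164833822, plus strand): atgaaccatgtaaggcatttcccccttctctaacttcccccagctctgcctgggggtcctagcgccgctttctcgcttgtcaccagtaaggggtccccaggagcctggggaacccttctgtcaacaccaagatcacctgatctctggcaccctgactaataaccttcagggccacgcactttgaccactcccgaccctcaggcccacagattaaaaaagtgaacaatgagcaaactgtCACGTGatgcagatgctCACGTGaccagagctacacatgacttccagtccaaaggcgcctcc
Ctsd (chr7:142387778-142388077, minus strand): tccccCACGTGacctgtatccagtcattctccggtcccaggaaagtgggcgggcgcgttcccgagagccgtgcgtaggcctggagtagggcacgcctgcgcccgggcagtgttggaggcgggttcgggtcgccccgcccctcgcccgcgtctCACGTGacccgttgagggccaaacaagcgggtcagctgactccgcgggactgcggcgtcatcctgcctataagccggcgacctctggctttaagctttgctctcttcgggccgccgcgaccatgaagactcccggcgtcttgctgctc
Gla (chrX:134600956-134601255, minus strand): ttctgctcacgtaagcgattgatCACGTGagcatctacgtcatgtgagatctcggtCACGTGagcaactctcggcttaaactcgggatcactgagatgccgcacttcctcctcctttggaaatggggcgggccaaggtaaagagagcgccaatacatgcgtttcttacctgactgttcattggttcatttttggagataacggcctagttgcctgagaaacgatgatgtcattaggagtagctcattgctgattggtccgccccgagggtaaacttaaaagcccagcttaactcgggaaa

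In Igf2r the full element began 7 bases before the transcript start, and in Cln3 it began 121 bases before it. In Atp6v0d1 the letters gtCACGTGag began 3 bases before the start, counted to the first letter of CACGTG as for the other genes. Of the members not printed, Lamp1 held CACGTG 4 times in its window. The 15 members with CACGTG had a median log2 fold change of 0.36 in the M1 contrast described below, with 7 called higher and 1 lower. The 22 members whose windows lacked it had a median of 0.45, with 14 called higher and 1 lower. These medians are a description and were not tested against each other.

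Total counts ranged from 17894937 to 18870516 per library. Counts were scaled by the TMM method of edgeR and are given as CPM, counts relative to the scaled size of the library, which compare libraries within a gene. Log2 fold changes between a pair of libraries carry 95% Clopper-Pearson intervals, which cover counting error only. A pair of libraries was called different for a gene at 1.5-fold, if either library had 10 counts or more. The one test with p-values was edgeR's quasi-likelihood test with Benjamini-Hochberg adjustment at 0.05, fitted to all 6 libraries with terms for state and irradiation over 11574 genes. For irradiation the states take the place of replicates, and for the M1 and M2 contrasts the irradiated library takes the place of a second sample. This leaves 2 residual degrees of freedom, so the p-values measure only the spread between these libraries. That spread includes any difference in the effect of irradiation between states. All 8 macrophage markers were detected, among them Itgam, Cd14 and Lyz2, while the B and T cell markers had 0 to 4 counts. Of 7 M1 markers, 6 passed the test as higher in the M1 state. Of the M2 markers, Chil3 and Retnla had 0 counts in all 6 libraries, and Arg1 had 0 in M0, 31 in M2 and 89 in RM2. The M2 marker Mrc1 had 10 counts in M0, 5 in RM0, 50 in M1, 26 in RM1, 6 in M2 and 12 in RM2, and was called higher in the M1 state at a log2 fold change of 2.65 (edgeR adjusted p = 0.00165). Mgl2 had 0 to 3 counts, and Irf4 was not called in the M1 or M2 state. Emr1 was called higher in the M1 state and Csf1r and Lyz2 lower, and these 3 were the macrophage markers that passed for M1. Of 7 fibroblast and epithelial markers, Col1a2, Epcam, Krt8 and Krt18 were at 0 and Dcn had 627 counts in M1 and 726 in RM1 against 113 to 177 elsewhere. The part of these genes in the members' values was not tested. Exons of Lamp1, Cln3, Ctsa, Ctsb, Ctsl, Ctsz, Hexa, Arsa, Arsb, Ppt1 and Atp6v1h overlap a gene on the opposite strand, whose reads cannot be told apart if strand was not used in counting. In bulk RNA, fewer cells of a type and less RNA per cell cannot be told apart.

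All 43 members were expressed, with between 60 and 177433 raw counts in any library. In CPM per kilobase of transcript, the highest mean levels were those of the proteases Ctsl, at 2945, Ctsd, at 2643, and Ctsb, at 1178. Ctsl ranged from 1595 in M2 to 6091 in M1, Ctsd from 1937 in RM2 to 4148 in M1, and Ctsb from 820 in RM2 to 2080 in M1. The lowest mean levels per length were those of Ctsh, an aminopeptidase of the cathepsin family, at 2.29, the heparan and dermatan sulfatase Ids, at 3.01, and Arsb, at 5.6. Ctsh had 73 raw counts in M0, 76 in RM0, 66 in M1, 64 in RM1, 68 in M2 and 60 in RM2, so its intervals were wide. Arsb, which removes sulfate from dermatan sulfate, had 5.96 in M0, 5.64 in RM0, 5.41 in M1, 5.11 in RM1, 6.06 in M2 and 5.42 in RM2 on this scale.

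**Figure D1:**
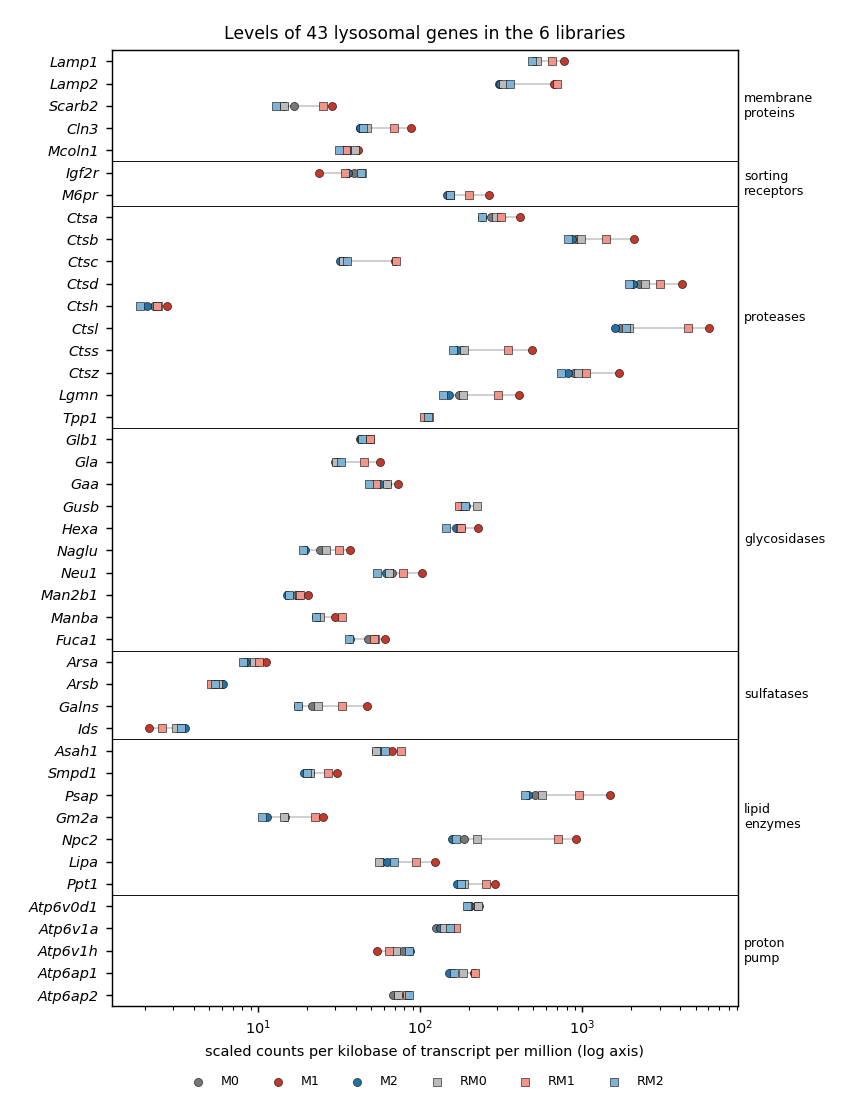
Level of each of the 43 genes in the 6 libraries, in CPM per kilobase of transcript, on a log axis. Circles are non-irradiated and squares irradiated libraries, a grey line joins the lowest and highest library, and black lines separate the roles named at the right. Ctsl, Ctsd and Ctsb lie highest, Ctsh lowest, and the M1 and RM1 points lie to the right for most proteases and lipid enzymes.

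As a share of all counted reads, which needs no scaling factor, the 43 genes took 2.69% in M0, 2.63% in M2, 2.82% in RM0 and 2.55% in RM2. They took 4.27% in M1 and 3.54% in RM1, above the other 4 libraries. Proteases made up most of this, with 1.72% of reads in M0, 2.94% in M1 and 2.32% in RM1. The lipid enzymes took 0.309% in M0 and 0.672% in M1. Reads from Ctsb, Ctsd, Ctsl and the saposin precursor Psap were 64.9% of the members' reads in M1, 61.2% in RM1 and between 55.1% and 56.6% in M0, M2, RM0 and RM2. The glycosidases, the pump and the sorting receptors went the other way by this measure, from 0.193% to 0.173%, from 0.171% to 0.139% and from 0.0791% to 0.0706% of reads between M0 and M1.

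**Figure D2:**
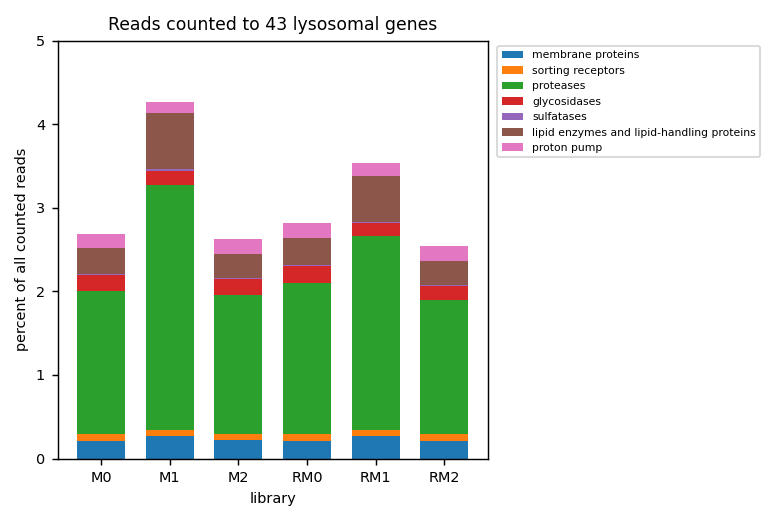
Percent of all counted reads that fell on the 43 genes in each library, as bars from 0 stacked by role. The bar of M1 reaches 4.27% and that of RM1 3.54%, while the other 4 lie between 2.55% and 2.82%.

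The M1 state was compared with the M0 state over all 6 libraries. Of the 43 members, 25 were called higher (background 23.3% of all genes tested) and 2 lower (background 24.3%), with a median log2 fold change of 0.44 against -0.02 over all genes tested. In 28 members both M1 and RM1 lay above the other 4 libraries (background 29.6%), and in 5 both lay below them (background 32.1%). By M1 against M0 alone, 37 members were higher (background 48.5%). By role, all 7 lipid enzymes, 4 of 5 membrane proteins and 7 of 10 proteases were called higher, against 4 of 10 glycosidases, 1 of 4 sulfatases and 1 of 5 pump genes. The sorting receptors split, with M6pr higher and Igf2r lower. Differences between the roles were not tested.

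These values are relative to the bulk of genes in each library. With library totals in place of TMM the median of all genes moved to -0.46 in M1 against M0 and that of the members to 0.15, with 23 members above 0 and 20 below. The members exceeded the median of all genes by 0.62 under TMM and by 0.61 under totals. In the fit with totals, 14 members were called higher (9.43% of all genes in that fit) and 8 lower (41%), the added lower calls being Tpp1, Gaa, Gusb, Arsb, Atp6v0d1 and Atp6v1h, and Atp6ap1 turned to -0.0043. Without the M0 library 14 members were called, all higher (15.4% of all genes in that fit were higher and 16.7% lower). In every alternative of this fit that was run, 13 members were called. They were Lamp2, Scarb2, Cln3, Ctsc, Ctsl, Ctss, Lgmn, Gla, Galns, Psap, Gm2a, Npc2 and Lipa. The share of all genes called in every alternative was not computed, so this count is not read as particular to the members.

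Among the lipid-handling proteins, Npc2 (chromosome 12 of GRCm38, 84754559 to 84773112), which passes cholesterol to the export protein NPC1, had 614 CPM in M0, 518 in M2, 744 in RM0 and 551.5 in RM2. It reached 3012 CPM in M1 and 2339 in RM1, so the libraries treated with LPS and IFN-γ stood far above the rest. Its log2 fold change in the M1 contrast was 1.98 ± 0.18 (SE), with an adjusted p of 1.64e-05 by edgeR's quasi-likelihood test, the largest increase of the set at 3.94-fold. Psap (chromosome 10, 60277628 to 60302600), whose product is cut into the saposins that help sphingolipid hydrolases, had 1354 CPM in M0, 1233 in M2, 1498 in RM0 and 1181 in RM2, against 3964 in M1 and 2535 in RM1. Its log2 fold change was 1.16 ± 0.20 (edgeR adjusted p = 0.000796). RM1 lay above every unpolarized or IL-4 treated library but well under M1. The other 5 were the lysosomal acid lipase Lipa at 0.93 ± 0.14, the GM2 activator Gm2a at 0.70, the thioesterase Ppt1 at 0.56, the acid sphingomyelinase Smpd1 at 0.46 and the acid ceramidase Asah1 at 0.41. Asah1 was higher in RM1, at 211.3 CPM, than in M1, at 185.4.

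Among the proteases, Ctsl had 3368 CPM in M0, 3144 in M2, 3837 in RM0 and 3667 in RM2, against 12010 in M1 and 8810 in RM1. Its log2 fold change was 1.53 ± 0.21 (edgeR adjusted p = 0.000218). The coordinates listed for Ctsl (chromosome 13 of GRCm38, 64363214 to 64370306) cover 61.4% of the annotated gene, and which part of the gene was counted is not known. Ctss, which trims the invariant chain for MHC class II, had 246.5 CPM in M0, 228 in M2, 253 in RM0 and 216 in RM2, against 662 in M1 and 471 in RM1. The log2 fold change of Ctss was 1.17 ± 0.15 (edgeR adjusted p = 0.000148). Ctsc, the dipeptidyl peptidase that activates granule serine proteases, gave nearly equal values in the LPS and IFN-γ treated libraries, 175.6 CPM in M1 and 176 in RM1. Ctsc had 82.6 CPM in M0, 83.6 in RM0, 80.5 in M2 and 88.1 in RM2, and its log2 fold change was 1.08 ± 0.12 (edgeR adjusted p = 5.28e-05). Legumain (Lgmn), Ctsb, Ctsd and Ctsz were also called higher, at 0.97, 0.86, 0.60 and 0.55. Ctsd, an aspartic protease, had 4749 CPM in M0, 5220 in RM0, 8823 in M1, 6454 in RM1, 4364 in M2 and 4120 in RM2. Ctsa, at 0.36, Ctsh, at 0.13, and the tripeptidyl peptidase Tpp1, at -0.04, did not pass the test. Tpp1 varied least of the set, from 375.6 CPM in RM1 to 404.6 in RM0. Ctsd shares 35% of its 100-base windows with an annotated readthrough transcript, so its reads could be split in counting.

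Among the membrane proteins, Lamp2 (chromosome X, 38401357 to 38456460), a main glycoprotein of the lysosomal lining, had 541 CPM in M0, 548 in M2, 577 in RM0 and 634 in RM2, against 1192 in M1 and 1232 in RM1. Its log2 fold change was 1.12 ± 0.14 (edgeR adjusted p = 0.000107), and RM1 and M1 were close. Cln3, the protein of juvenile Batten disease, and Scarb2, a receptor that carries a hydrolase to the lysosome, were called higher at 0.80 and 0.78, with listed coordinates that cover 28.3% and 69.5% of their genes. Lamp1 was called higher at 0.45 with the M0, M2, RM0 and RM2 libraries between 1085 and 1173 CPM, 1709 in M1 and 1454 in RM1. Mcoln1, a calcium channel of the lysosomal membrane, was at 0.03 and did not pass the test. Its level was 71.5 CPM in M0, 82 in RM0, 85.6 in M1, 71.9 in RM1, 75.2 in M2 and 65.2 in RM2.

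The sorting receptors moved in opposite directions. Igf2r, the cation-independent mannose 6-phosphate receptor, which also takes up IGF2, had 346 CPM in M0, 319.5 in M2, 388 in RM0 and 383 in RM2, against 212 in M1 and 307 in RM1. Both treated libraries lay below the other 4, and the log2 fold change was -0.52 ± 0.14 (edgeR adjusted p = 0.00916). The call was lost without the M0 library, and the listed coordinates of Igf2r (chromosome 17 of GRCm38, 12748644 to 12769706) cover 24.1% of the annotated gene. M6pr, the cation-dependent receptor, had 382 CPM in M0, 369 in M2, 384 in RM0 and 384 in RM2, against 671 in M1 and 501 in RM1. It was called higher at 0.60 ± 0.15 (edgeR adjusted p = 0.00697). The M6pr call was lost without the M0 library and with library totals, where that of Igf2r was kept.

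Among the glycosidases, Gla, the alpha-galactosidase of Fabry disease, was called higher at 0.75, and Neu1, Naglu and Manba at 0.45, 0.44 and 0.41. Naglu had 61.6 CPM in M0, 67.3 in RM0, 94.3 in M1, 80.9 in RM1, 49.8 in M2 and 48.7 in RM2. The other 6 glycosidases, Hexa, Fuca1, Man2b1, Glb1, Gaa and Gusb, lay between 0.18 and -0.25 and did not pass the test. Hexa, whose loss causes Tay-Sachs disease, had 358 CPM in M0, 353 in RM0, 456 in M1, 356 in RM1, 334 in M2 and 289.5 in RM2, so M1 alone stood above the rest. Gusb, the beta-glucuronidase, had 517 CPM in M0, 602 in RM0, 476 in M1, 464 in RM1, 478.5 in M2 and 509 in RM2.

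Among the sulfatases, Galns, which acts on keratan and chondroitin sulfate, was called higher at 0.83 ± 0.16 (edgeR adjusted p = 0.00169). Ids had 16.6 CPM in M0, 17.6 in M2, 15.5 in RM0 and 16.6 in RM2, against 10.6 in M1 and 12.8 in RM1. The log2 fold change of Ids was -0.46 ± 0.16 (edgeR adjusted p = 0.0389), a call that was lost when M0, M2, RM0 or RM2 was left out, when M1 was left out, and in DESeq2. Arsa and Arsb did not pass the test, and the coordinates listed for Arsa cover 5.56% of its gene. Of the proton pump genes only the accessory subunit Atp6ap1 was called, at 0.34 ± 0.13 (edgeR adjusted p = 0.0462). The Atp6ap1 call was lost when M0, M1, M2, RM0 or RM2 was left out. It was also lost with library totals and when all genes with at least 1 count were kept. The catalytic subunit Atp6v1a, at 0.24, Atp6ap2, at 0.15, Atp6v0d1, at -0.13, and Atp6v1h, at -0.33, did not pass. Atp6v1h had 111.7 CPM in M1 and 132 in RM1, against 161 in M0, 145.9 in RM0, 177 in M2 and 174 in RM2, so both treated libraries were lowest.

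The M1 difference was next set beside itself without and after irradiation, in M1 against M0 and in RM1 against RM0, which share no library. In M1 against M0, 22 members were at least 1.5-fold higher (background 20.1%) and 2 lower (background 24.6%), with a median log2 fold change of 0.59, and at 2-fold 11 were higher (background 9.31%) and 0 lower (background 13.3%). With the trend of the fold changes with GC content and length removed, 22 members were at least 1.5-fold higher and 0 lower, since the lower genes Igf2r and Ids were then at -0.41 and -0.46. In RM1 against RM0, 10 were higher (background 14.7%) and 0 lower (background 17.9%), with a median of 0.30. At 2-fold 4 were higher (background 6.16%) and 0 lower (background 7.86%). With the trend removed, 12 were higher and 0 lower, with a median of 0.35 beside 0.01 for all genes. No share of all genes past 1.5-fold was computed with the trend removed, in either pair. With the trend left in, the direction was the same in 37 of 43 members (background 79.2%), and Spearman's rho across the members was 0.89. The difference was closer to 0 in the irradiated pair for 33 members (background 64.4%). For 25 of these the counting intervals did not overlap, for 5 members the irradiated pair was farther from 0 without overlap, and for 13 the intervals overlapped. No share of all genes was computed for these interval counts. Intervals are narrow for genes with many counts, so the counts are not read as particular to the members. The difference between the pairs was not tested, since each rests on 1 library per condition.

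**Figure D3:**
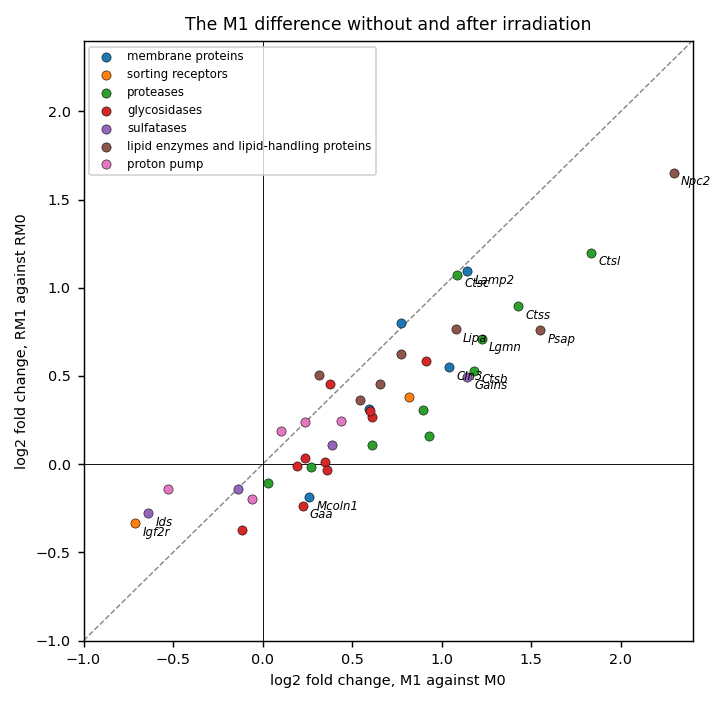
Log2 fold change of M1 against M0 (horizontal) and of RM1 against RM0 (vertical) for the 43 genes, coloured by role, with the line of equal values dashed. With TMM scaling, most points lie below the dashed line, with Npc2 at 2.29 and 1.65, while Lamp2 and Ctsc lie on or near it.

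The gap between the pairs differed among the members. Npc2 was at 2.29 (95% interval 2.27 to 2.32) in M1 against M0 and at 1.65 (1.62 to 1.68) in RM1 against RM0. Psap was at 1.55 in the first pair and 0.76 in the second, and Ctsl at 1.83 and 1.20. Ctsz was at 0.93 and 0.16, Ctsa at 0.61 and 0.11, and Ctsd at 0.89 and 0.31. Lamp2, at 1.14 and 1.09, Ctsc, at 1.09 and 1.07, and Scarb2, at 0.77 and 0.80, gave like values under TMM, with intervals that overlapped. With library totals Lamp2 was at 0.70 and 0.85 and Ctsc at 0.65 and 0.83. With the GC and length trend removed, Lamp2 was at 1.14 and 0.88, Ctsc at 1.14 and 0.93 and Scarb2 at 0.90 and 0.72. Under TMM with the trend left in, Mcoln1 went from 0.26 (0.15 to 0.371) to -0.19 (-0.297 to -0.079). The acid glucosidase Gaa went from 0.22 to -0.24.

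**Figure D4:**
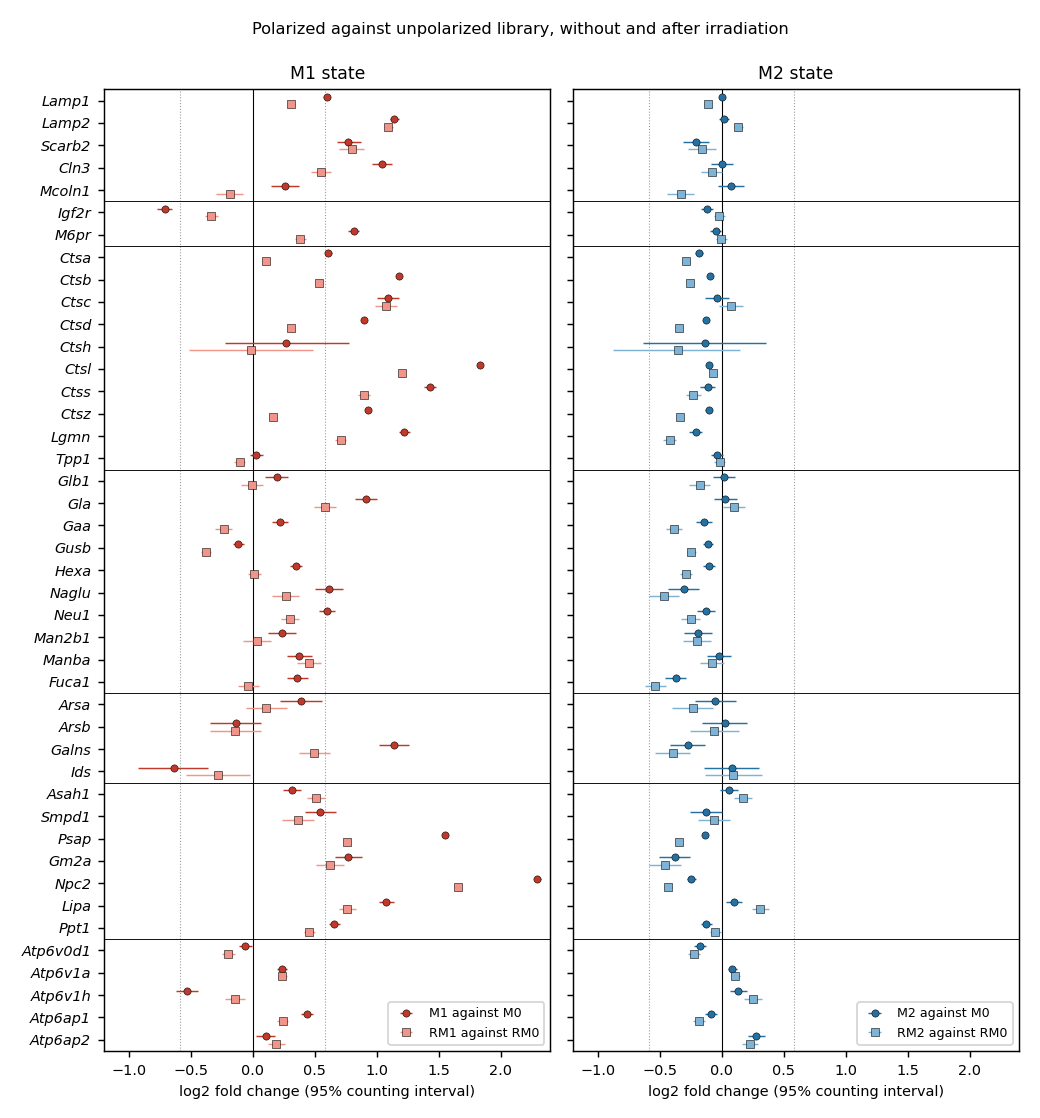
Log2 fold change of each gene in the M1 state (left) and the M2 state (right) against the unpolarized library, with circles for the non-irradiated and squares for the irradiated pair. Bars are 95% counting intervals, dotted lines mark 1.5-fold, and black lines separate the roles. In the M1 panel 22 circles lie beyond the right dotted line and in the M2 panel none does.

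Irradiation was compared within each state. By edgeR's quasi-likelihood test over the 6 libraries, 0 members were called (background 0.346% higher and 0.13% lower), and DESeq2 also called 0. In the edgeR test 1 member had an unadjusted p under 0.05 (background 1707 of 11574 genes tested). That member was Igf2r, with a log2 fold change of 0.32 ± 0.11 (edgeR adjusted p = 0.226, unadjusted p = 0.0145), higher after irradiation in 3 of 3 states. Between single pairs, 0 members were 1.5-fold higher or lower in RM0 against M0 (background 2.49% and 3.47%) and in RM2 against M2 (background 3.35% and 3.87%). In RM1 against M1, 0 were higher (background 10.2%) and 2 lower (background 7.48%), and at 2-fold 0 were higher or lower (background 3.01% and 2.2%).

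**Figure D5:**
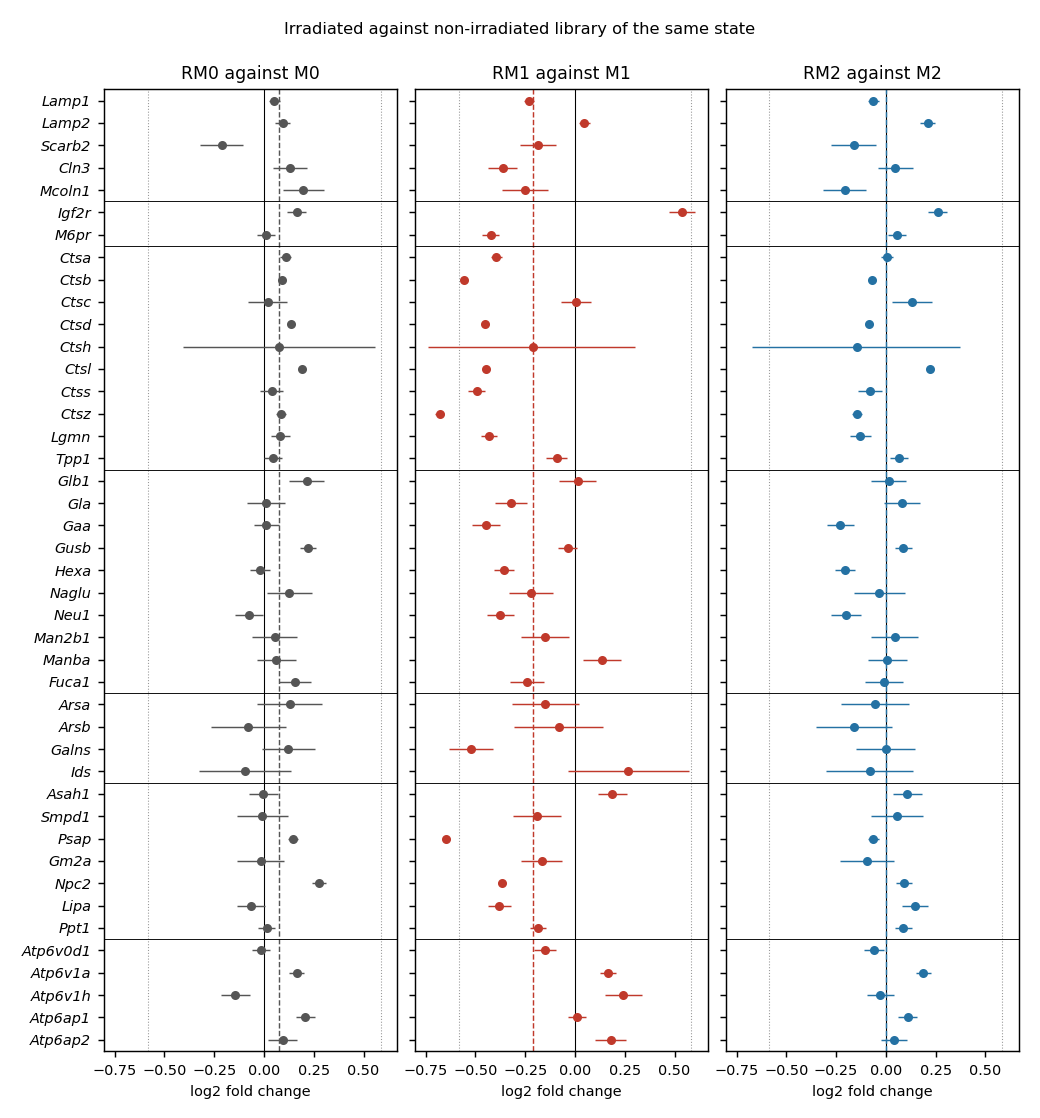
Log2 fold change of each gene in the irradiated against the non-irradiated library of the M0, M1 and M2 state, with 95% counting intervals as bars. The dashed line is the median of the 43 genes, at 0.07, -0.21 and 0.00, and dotted lines mark 1.5-fold, beyond which only Ctsz and Psap lie, in the M1 state and with TMM scaling.

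The values of the pairs follow by state, and differences between the states were not tested. In RM0 against M0, 32 of 43 members were higher (background 50.1%), with a median log2 fold change of 0.07 and a range from -0.21 to 0.28. In RM1 against M1, 32 were lower (background 50.9%), with a median of -0.21. In RM2 against M2, 21 were higher (background 49.7%) and 22 lower, with a range from -0.23 to 0.26. RM1 against M1 shares the M1 library with M1 against M0, so their values are only given side by side. With library totals in place of TMM the median of RM1 against M1 was -0.07, beside 0.13 for all genes, so that the members stayed 0.20 under all genes. Across all genes the log2 fold change of RM1 against M1 followed the GC content of the transcript with a Spearman rho of -0.40, and across the members with -0.48. The part of GC content in these differences was not tested beyond the removal of its trend together with that of length. After this the median was -0.17, beside -0.04 for all genes, so that the members lay 0.13 under all genes.

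The lowest values in RM1 against M1 were those of Ctsz, a carboxypeptidase of the cathepsin family, Psap and Ctsb. Ctsz had 1275 CPM in M0, 1354 in RM0, 2425 in M1, 1513 in RM1, 1186 in M2 and 1073 in RM2, and its log2 fold change was -0.68 (95% interval -0.704 to -0.657). Psap was at -0.65. Neither was past 1.5-fold with library totals, at -0.54 for Ctsz and -0.50 for Psap, or with the GC and length trend removed, at -0.42 and -0.54. Under totals the one member past 1.5-fold was Igf2r, higher at 0.68, and after removal of the trend it was Ctsb, lower at -0.71. With TMM and the trend left in, Ctsb was at -0.56, with 9863 CPM in M1 and 6694 in RM1. Ctsb had 4350 CPM in M0, 4087 in M2, 4636 in RM0 and 3889 in RM2, so RM1 lay above these. Proteases had a median of -0.44 in this comparison and the pump genes a median of 0.17. The highest values were those of Igf2r, at 0.54, Ids, at 0.26 with an interval from -0.0375 to 0.574, and Atp6v1h, at 0.24, 3 genes that were lower in M1 than in M0.

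In RM0 against M0 the highest values were those of Npc2, at 0.28, Gusb, at 0.22, and the beta-galactosidase Glb1, at 0.21. Glb1 had 102 CPM in M0, 118 in RM0, 116 in M1, 117 in RM1, 103 in M2 and 104 in RM2. The lowest were those of Scarb2, at -0.21, Atp6v1h, at -0.14, and Ids, at -0.10 with an interval that held 0. In RM2 against M2, Igf2r, at 0.26, Ctsl, at 0.22, and Lamp2, at 0.21, were highest, and Gaa, at -0.23, Mcoln1, at -0.21, and Hexa, at -0.21, lowest. Gaa had 210 CPM in M0, 212 in RM0, 245 in M1, 180 in RM1, 190.5 in M2 and 162 in RM2.

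Irradiated libraries were higher in 3 of 3 states for 8 members (background 19.3%) and lower for 6 (background 19.5%). Counting intervals lay above 0 in all 3 states for Lamp2, Igf2r and Atp6v1a, and below 0 for Scarb2 and Neu1. Scarb2 had 78.7 CPM in M0, 67.9 in RM0, 134 in M1, 118 in RM1, 68.3 in M2 and 61 in RM2, with differences of -0.21, -0.19 and -0.16. For 18 members the intervals lay on opposite sides of 0 in different states. No share of all genes was computed for these interval counts, so they are not read as particular to the members. The trend with GC content across all genes also differed in sign between states. Its Spearman rho was 0.22 in RM0 against M0, -0.40 in RM1 against M1 and -0.38 in RM2 against M2. The part of this trend in the interval counts was not tested.

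The M2 state showed no called member. The quasi-likelihood test called 0 (background 0.156% higher and 0.0346% lower), and the lowest edgeR adjusted p was 0.349, for Fuca1. In this test 3 had an unadjusted p under 0.05 (background 1173 of 11574 genes tested). DESeq2 called 0 as well, with 5 at an unadjusted p under 0.05, a count for which no share of all genes was computed. Between single pairs 0 members were past 1.5-fold in M2 against M0 (background 3.19% higher and 1.79% lower) and in RM2 against RM0 (background 6.46% and 3.91%). Below 1.5-fold the values leaned downward, with 30 members lower in M2 than in M0 (background 51.5%) and 29 lower in both pairs (background 36.8%). The medians were -0.10 and -0.18, and Spearman's rho between these pairs, which share no library, was 0.79 across the members. RM2 was the lowest of the 6 libraries for 19 members (background 18.8%). When M1 and RM1 were both left out of the fit, 6 members were called lower in the M2 state (background 4.67%), namely Lgmn, Naglu, Fuca1, Galns, Gm2a and Npc2. That fit has fewer residual degrees of freedom than the main one. Fits without M1 alone or RM1 alone rest on the same libraries for this contrast, M0, M2, RM0 and RM2, and add no further support.

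Gm2a had 60.8 CPM in M0, 46.7 in M2, 60 in RM0 and 43.7 in RM2, beside 104 in M1 and 92.5 in RM1. Its log2 fold change was -0.38 (95% interval -0.504 to -0.256) in M2 against M0 and -0.46 in RM2 against RM0. Fuca1, the lysosomal fucosidase, had 120 CPM in M0, 92.9 in M2, 134 in RM0 and 92.3 in RM2, with 154 in M1 and 130 in RM1. It was at -0.37 and -0.53 in these pairs, and Naglu was at -0.31 and -0.47. The highest values in M2 against M0 were those of Atp6ap2, the prorenin receptor and a pump accessory protein, at 0.28, Atp6v1h, at 0.14, and Lipa, at 0.10. Atp6ap2 had 158 CPM in M0, 169 in RM0, 170 in M1, 192.4 in RM1, 192 in M2 and 198 in RM2. Lipa had 173 CPM in M0, 165 in RM0, 366 in M1, 281 in RM1, 186 in M2 and 205 in RM2. Here too the values followed GC content, with a Spearman rho across the members of -0.55 in M2 against M0 and -0.76 in RM2 against RM0. With the trend with GC content and length removed, the medians were -0.08 and -0.16, beside -0.03 and -0.03 for all genes. The members then lay 0.05 and 0.12 under all genes, against 0.10 and 0.18 with the trend left in.

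Genes linked to the lysosome were counted from lists outside the set, which also hold tagging and sorting genes, regulators and cathepsin inhibitors. Of 97 such genes tested, 31 were called higher in the M1 state (background 23.3%) and 21 lower (background 24.3%), with a median log2 fold change of 0.15. For irradiation edgeR called 0, and 10 had an unadjusted p under 0.05 (background 1707 of 11574 genes tested). For the M2 state it called 0, and 12 had such a p (background 1173 of 11574). Of 27 further hydrolases and cofactors, 10 were higher and 7 lower. Cathepsin F (Ctsf) and the sulfamidase Sgsh were the lowest, at -1.74 and -1.26. Of 23 further membrane proteins, 8 were higher, with the peptide transporter Slc15a3 at 1.59, and 4 lower, with Atp13a2 at -0.89. Of 13 other pump subunits, 6 were higher and 1, Atp6v0a2, lower at -0.72. In the tagging and sorting list of 13 genes, 4 were higher, with Gnptab, which encodes subunits of the enzyme that adds the mannose 6-phosphate tag, at 0.80. The 3 that were lower included Nagpa, which uncovers that tag, at -0.56.

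Of 18 transcriptional and nutrient regulators, 1 was called higher and 5 lower in the M1 state. The one higher was Mitf, with 503 raw counts in M0, 501 in RM0, 617 in M1, 832 in RM1, 521 in M2 and 619 in RM2 and a log2 fold change of 0.84 (edgeR adjusted p = 0.000464). Tfeb, with 127 to 214 raw counts, was at 0.06, and Tfe3 was at -0.14, and neither passed the test. The kinase Mtor, at -0.48, and its partner Rptor, at -0.62, were among those called lower.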

How the data were processed

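RNA-seq of 6 RAW264.7 libraries was analysed from raw read counts per gene, deposited by the authors without normalization. The submitters' processing notes name Trimmomatic 0.36, HISAT2 2.2.1, HTSeq 0.11.3 and the build mm10. Whether counting used strand is not given in the sources used here. Of 24062 genes, 8137 had 0 counts in all libraries, and 27 names had become dates. Deposited columns other than counts, names and positions were not used.

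Samples were grouped by their labels. The 43 members and the other gene lists were chosen with earlier results of these data known. Libraries of 17894937 to 18870516 counts were scaled by TMM (edgeR 4.0.16, R 4.3.3), and log2 fold changes between pairs used a prior count of 2. The fit across libraries was edgeR's quasi-likelihood test on state and irradiation over genes that reached 10 counts in 3 or more libraries, with a fitted coefficient of variation of 0.107. It was tested on simulated data. SE values were derived from the fold change and the F statistic.

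Values in all libraries were given for the 6 members with the largest called change in each direction, the 3 highest and lowest of each of 5 pairs, and the 3 highest and lowest levels per length. Other members given in this way were chosen after their values were seen. From other lists, Tfeb, Tfe3 and Mitf and at most 4 genes past the test per list were named. Some genes of these lists are not reported here. Transcript lengths and GC content came from GENCODE M21. The alternatives were DESeq2 1.42.0, other scalings, filters and prior counts, a 2-fold threshold, removal of GC and length trends, no state term, and each library or state left out. Python 3.11.15 was used for the rest.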

Additional observations from a re-analysis of the deposited data

Results flagged for a closer look

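For 18 members, the counting intervals of the irradiation difference lay above 0 in some state and below 0 in another, with 1 library per condition, so that the difference between states was not tested. The share of all genes with this pattern was not computed. In 17 of them the largest difference was a lower value in RM1 than in M1. The log2 fold changes of RM1 against M1 were -0.68 for Ctsz, -0.65 for Psap, -0.56 for Ctsb, -0.45 for Ctsd, -0.45 for Ctsl, -0.43 for Lgmn and -0.42 for M6pr. They were -0.39 for Ctsa, -0.38 for Lipa, -0.36 for Npc2, -0.36 for Cln3, -0.25 for Mcoln1, -0.24 for Fuca1 and -0.23 for Lamp1. The smallest were -0.22 for Naglu, -0.19 for Ppt1 and -0.0925 for Tpp1. Atp6v1h was the exception, at 0.24 in RM1 against M1 and -0.14 in RM0 against M0.

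In Mcoln1 and Gaa, the M1 difference itself lay on opposite sides of 0 without and after irradiation. Mcoln1 was at 0.26 in M1 against M0 and -0.19 in RM1 against RM0, and Gaa was at 0.22 and -0.24. These differences were not tested either.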

How the results depend on the processing

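Replicates could not be paired, because the labels carry no replicate numbers and each condition has 1 library. The fit does set each irradiated library beside that of its own state, through the state term. Without that term it called 0 of all 11574 genes for irradiation, so its 0 for the members adds no support. The cause of the shifts below was not tested. The number of members past 1.5-fold was 24 in M1 against M0, 10 in RM1 against RM0 and 2 in RM1 against M1. With library totals it became 14 (11 higher and 3 lower), 6 (5 higher and 1 lower) and 1 (higher). Lower calls that appeared with totals were Atp6v1h in M1 against M0, at -0.97, and Gusb in RM1 against RM0, at -0.62. No share of all genes past 1.5-fold was computed with totals, so these counts are not read as particular to the members. At a 2-fold threshold, which by construction calls fewer, the numbers were 11, 4 and 0. In RM1 against M1 both lower calls, Ctsz and Psap, were lost with totals, where the 1 left was Igf2r, higher, and after removal of the GC and length trend, where the 1 left was Ctsb, lower. The number called in the M1 state, 27, was 17 without the M2 state and ranged from 14 without M0 to 32 without RM1 when each library was left out. The number called in the M2 state, 0, was 6 without the M1 state and ranged from 0 to 7 when each library was left out, with 7 without M1 and 7 without RM1. In the M1 state, 17.6% of all genes were called higher and 20% lower without the M2 state (main fit 23.3% and 24.3%). In the M2 state, 6.87% were called higher and 4.67% lower without the M1 state (main fit 0.156% and 0.0346%). The shares of all genes also fell without M0 and rose without RM1 in the M1 state, and rose without M1 or RM1 in the M2 state. These shifts in the fit are therefore not read as particular to the members. The irradiation count stayed 0 in every alternative run. The M1 difference of Atp6ap1 turned to -0.0043 with library totals. Over combinations of a member called by the fit and an alternative, 234 kept direction and call, 62 lost the call and 1 turned in direction. For members past 1.5-fold in a pair, 78 combinations stayed within the counting interval of the main value and 66 lay outside it. Whether the pair values kept the 1.5-fold call is not part of that count. This depth leaves little counting error for most members, while the spread between cultures was not measured.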

Other observations

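Among inhibitors of cathepsins, 3 genes were tested. Cystatin C (Cst3) and cystatin B (Cstb) were called higher in the M1 state, at log2 fold changes of 0.51 (adjusted p = 0.0288) and 0.73 (adjusted p = 0.00147) by edgeR's quasi-likelihood test. Cystatin F (Cst7), which acts on cathepsins inside the lysosomal pathway, had 39 raw counts in M0, 56 in RM0, 16 in M1, 17 in RM1, 100 in M2 and 149 in RM2. It was called lower in the M1 state at -1.19 (edgeR adjusted p = 0.0125), and its fitted value in the M2 state, 1.36, did not pass the test (edgeR adjusted p = 0.0818).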
